A study of Mus musculus with 29 samples.

Results

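The TRIM (tripartite motif) protein family was described across 3 RNA-seq experiments in mouse, as the 48 protein-coding genes with a symbol of the form Trim plus a number and a mean level of at least 0.5 CPM (read counts scaled to a common library total) in 1 or more of the 3 count tables. They are 48 of the 68 protein-coding genes with such a symbol and of the 48709 gene identifiers in the tables. The other 20 stayed below the limit. The members nearest to it were Trim15 (0.544 CPM), Trim72 (0.834 CPM) and Trim30b (1.10 CPM) inside, and Trim29 (0.365 CPM), Trim43a (0.317 CPM) and Trim61 (0.237 CPM) outside. Of the 48 members, 43 reached the limit in prefrontal cortex (PFC) tissue, 44 in microglia and 42 in co-cultures, and 38 reached it in all 3.

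The study asked what an inhibitor of the microRNA miR-99b-5p does in brain tissue and in microglia. PFC tissue came from male C57BL/6J mice aged 3 months, 5 days after an injection of lipid nanoparticles that carried either anti-miR-99b, a locked nucleic acid oligonucleotide against miR-99b-5p (n = 3), or a scrambled oligonucleotide, sc-control (n = 3). Primary microglia were shaken off mixed glia cultures of CD1 pups at postnatal day 1, grown in medium conditioned by L929 cells, and kept for 2 days with either oligonucleotide (4 libraries of each arm). The co-cultures joined cortical neurons of CD1 embryos (embryonic day 17.5) with primary microglia that had received anti-miR-99b (7 libraries) or the control oligonucleotide (8 libraries) beforehand. Every control therefore received an oligonucleotide as well. The labels number the libraries but do not say whether the cultures were prepared separately, so that p-values from the cultures measure the spread between these libraries only. Polyadenylated RNA was sequenced, and such libraries do not measure a mature microRNA, so whether miR-99b-5p was inhibited was not checked in them. By qPCR, the paper reports lower miR-99b-5p after anti-miR-99b in PFC tissue and in primary microglia. The PFC libraries held between 24482309 and 36475236 counted reads each, those of the microglia from 21324156 to 35013400 and those of the co-cultures from 23269839 to 37901110. The 10 microglia markers examined (none at 0 in any library) summed to between 11229 and 11705 CPM in the microglia, to between 440 and 618 CPM in the PFC and to between 94.6 and 133 CPM in the co-cultures, while 10 neuron markers summed to between 76.4 and 85.8 CPM in the microglia, so that the labelled cell types had their markers.

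TRIM proteins share a RING finger, B-box zinc fingers and a coiled coil, and most are ubiquitin ligases whose C-terminal domain selects the substrate. One branch is induced by interferon and acts in antiviral defence, either by binding viral parts directly or by regulating the sensors and kinases that lead to interferon. Another branch works in neurons on the cytoskeleton and at synapses, and a small branch, around Trim28, represses transcription on chromatin. The members were divided by these known roles into 14 interferon-inducible genes, 7 neuronal or cytoskeletal genes, 4 chromatin corepressors, 1 muscle gene (Trim72) and 22 others.

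Of the 14 interferon-inducible genes, 9 sit together within 263 kb of chromosome 7 (GRCm38, chr7:104244457-104507849), among them Trim30a, Trim30b, Trim30c, Trim30d and the mouse relatives of the retrovirus restriction factor TRIM5 (Trim5, Trim12a and Trim12c). Sequence was compared because interferon acts through a short promoter element, the interferon-stimulated response element (ISRE). RefSeq promoters (GRCm38.p6, 250 bases before to 50 bases after the start) were at hand for 38 of the 48 members, 13 of them interferon-inducible. Its core, GAAA and GAAA with any 2 bases between them, was searched on both strands. It occurred in the promoter of 8 of these 13 genes and of 1 of the 25 others (Trim2, not in all of its listed promoters), against 3.99% of the 27025 genes in the table. The 8 are not independent of each other. Trim5, Trim12a and Trim12c share the same match and nearly the same bases around it, and so do Trim30a and Trim30d. In 7 of the 8 the match began within 50 bases before or 20 bases after the start. The interferon-gamma element TTCNNNGAA, searched the same way, was in 1 of the 13 and in 9.55% of all genes. A match is a description of the letters and not a bound site. The promoters of Trim21 and Trim26, with 2 overlapping matches each, of Trim30a, Trim30d and Trim34a, with 1 match each, and of Trim25, with none, are shown because these genes carry the results below. They are written 5′ to 3′ on the strand of the gene, with the bases of a match to this core, or to its reverse complement, in capitals.
Trim30a (chr7:104465144-104465443, minus strand): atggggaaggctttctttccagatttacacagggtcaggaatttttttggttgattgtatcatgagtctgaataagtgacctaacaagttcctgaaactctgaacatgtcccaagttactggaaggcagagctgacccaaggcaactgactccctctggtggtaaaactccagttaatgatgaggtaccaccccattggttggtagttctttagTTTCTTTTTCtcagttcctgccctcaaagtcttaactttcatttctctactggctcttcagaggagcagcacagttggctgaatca
Trim30d (chr7:104507800-104508099, minus strand): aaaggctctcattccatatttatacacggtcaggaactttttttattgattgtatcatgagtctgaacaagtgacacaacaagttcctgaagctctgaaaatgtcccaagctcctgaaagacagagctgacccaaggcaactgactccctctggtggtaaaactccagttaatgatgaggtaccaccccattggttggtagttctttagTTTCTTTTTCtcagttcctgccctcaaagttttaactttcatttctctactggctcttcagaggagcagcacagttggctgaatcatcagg
Trim34a (chr7:104244207-104244506, plus strand): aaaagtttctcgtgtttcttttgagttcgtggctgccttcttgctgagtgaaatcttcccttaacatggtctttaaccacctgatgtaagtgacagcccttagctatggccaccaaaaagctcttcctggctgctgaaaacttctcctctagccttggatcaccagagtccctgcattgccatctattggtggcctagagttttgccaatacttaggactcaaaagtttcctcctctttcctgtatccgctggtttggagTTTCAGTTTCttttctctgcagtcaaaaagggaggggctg
Trim21 (chr7:102565433-102565732, minus strand): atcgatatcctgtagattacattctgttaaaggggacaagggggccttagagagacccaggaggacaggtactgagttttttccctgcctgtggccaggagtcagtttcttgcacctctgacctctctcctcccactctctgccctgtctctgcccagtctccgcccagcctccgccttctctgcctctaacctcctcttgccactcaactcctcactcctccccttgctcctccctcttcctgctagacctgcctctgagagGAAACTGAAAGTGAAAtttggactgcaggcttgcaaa
Trim26 (chr17:36836896-36837195, plus strand): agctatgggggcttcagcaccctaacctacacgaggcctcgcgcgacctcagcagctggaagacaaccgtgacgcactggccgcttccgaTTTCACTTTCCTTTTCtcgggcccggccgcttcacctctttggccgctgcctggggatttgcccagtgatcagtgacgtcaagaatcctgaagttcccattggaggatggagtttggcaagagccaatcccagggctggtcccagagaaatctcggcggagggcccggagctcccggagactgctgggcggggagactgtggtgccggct
Trim25 (chr11:88999153-88999452, plus strand): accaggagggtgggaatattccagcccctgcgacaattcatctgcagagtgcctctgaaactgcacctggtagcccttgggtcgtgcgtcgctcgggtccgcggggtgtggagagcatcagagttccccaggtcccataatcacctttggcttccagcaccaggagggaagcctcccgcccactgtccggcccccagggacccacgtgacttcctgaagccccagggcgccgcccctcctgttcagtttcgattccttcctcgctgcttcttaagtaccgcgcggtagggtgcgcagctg

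Trim30a and Trim30d carried the same 10 letters, which began 36 and 41 bases before the start. In Trim26 the first match lay 160 bases before the start. The RefSeq table also holds a second start of Trim30a, with 1 match of its own. The microRNA that was inhibited is printed because matches to its seed (bases 2 to 8, in capitals) were searched for in the members.
mmu-miR-99b-5p (chr17:17830194-17830215, plus strand, GRCm38.p6): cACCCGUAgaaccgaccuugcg

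A match to this seed in the longest annotated 3′ UTR (TACGGGT or ACGGGTA) was present in 2 of the 47 members with a 3′ UTR, Trim66 and Trim71, and in 1.90% of 20857 genes. None of the 13 interferon-inducible members with a 3′ UTR had one. Other kinds of target site were not searched for.

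The closeness of these paralogs limits the counts. Of the 50-base windows in the annotated transcripts (GENCODE M21), the length of 1 read, 59.7% of those of Trim34a and 56.8% of those of Trim34b also occurred in another gene, mainly in each other. The share was 36.6% for Trim5 and 33.7% for Trim12c, and 33.9% for Trim14, which overlaps Nans on the other strand. It was 10.5% for Trim12a, 7.49% for Trim30d, 5.98% for Trim30a and 0.296% for Trim25. No window of Trim32, which lies inside Astn2 on the other strand, occurred in another gene, and for Trim47 and Trim65, which overlap on the same strand, 6.58% and 3.66% did. The strand setting of the counting is not given in the sources used here, so that reads from the windows shared by Trim14 and Nans cannot be told apart.

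Among sc-control libraries, the interferon-inducible branch was highest in the microglia. All levels in this comparison were scaled in 1 normalization over the 15 control libraries, and a member was called different at an adjusted p under 0.05 and more than 1 log2 unit. Sample type goes together with experiment, age and, for the PFC, mouse strain, and these cannot be told apart. Because 1 table was enough for membership, the direction of a member near 0 in another table can follow from the rule, and counts are given over the 38 members at or above the limit in all 3 tables. Of the 14 interferon-inducible members 8 are among these: Trim12c, Trim21, Trim25, Trim26, Trim30a, Trim30d, Trim34a and Trim56. Against the PFC, 8 of the 8 were higher in microglia (edgeR's quasi-likelihood test with Benjamini-Hochberg adjustment), beside 26.4% of all genes higher and 37% lower, with a median log2 difference of 3.05. Against the co-cultures 8 of 8 were higher, beside 24.3% of all genes higher and 35.2% lower, with a median of 3.12. Of the 30 other members in all tables, 5 were higher and 11 lower in microglia than in the PFC, and 4 were higher and 14 lower than in the co-cultures. The remaining 6 interferon-inducible members, Trim5, Trim12a, Trim14, Trim30b, Trim30c and Trim34b, were below the limit in 1 or 2 tables and are given by their levels only.

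Trim30a, which restrains Toll-like receptor signalling, was the second highest member per length in the microglia, with 41.8 RPKM (reads per kilobase of exon, scaled as CPM), while it ranked 30 of 48 in the PFC and 28 of 48 in the co-cultures. In CPM it was at 172 ± 10.1 (SD, n = 4) in microglia and at 5.34 ± 2.49 (n = 3) in the PFC, a log2 difference of 4.99 (SE 0.13). Trim25, a ubiquitin ligase of the RIG-I pathway, stood at 166 ± 2.00 CPM in microglia, 12.5 ± 2.03 in the PFC and 8.48 ± 0.918 in the co-cultures. Trim14, an adaptor of the mitochondrial antiviral protein MAVS, was at 27.9 ± 0.749 CPM in microglia, 0.585 ± 0.294 in the PFC and 0.444 ± 0.150 in the co-cultures. Trim21, a cytosolic antibody receptor, was at 34.2 ± 1.11 CPM in microglia and at 3.88 ± 0.447 in the PFC. Trim34a (log2 difference 1.41, SE 0.21) and Trim26 (1.81, SE 0.05) had the smallest of the 8 differences from the PFC, and Trim26 stood at 79.7 ± 2.52 CPM in microglia and 22.8 ± 0.824 in the PFC.

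Trim12a and Trim34b were each near 0 reads in at least 1 experiment. Trim12a had 97, 65 and 118 reads in the 3 PFC control libraries and 99, 112 and 147 in the 3 anti-miR-99b libraries, and 0 or 1 read in each of the 8 microglia libraries. Trim34b had 0 or 1 read in each of the 6 PFC libraries and between 84 and 123 reads in each of the microglia libraries. In the 15 co-culture libraries Trim12a had 0 to 2 reads and Trim34b an intermediate 10 to 22. The PFC mice were C57BL/6J and both kinds of culture were CD1, so strain and sample type cannot be told apart for this pair, and Trim34b shares more of its windows with other genes than any member but Trim34a.

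The neuronal and cytoskeletal branch had the opposite order. Of its 7 members, each at or above the limit in all 3 tables, 5 were lower in microglia than in the PFC (37% of all genes) and 6 were lower than in the co-cultures (35.2% of all genes), with none higher. Trim9, a brain-enriched ligase that binds the netrin receptor DCC, was at 319 ± 14.9 CPM in the PFC, 237 ± 8.14 in the co-cultures and 12.3 ± 0.828 in microglia. Trim46, which organises microtubules at the start of the axon, was at 105 ± 4.88, 134 ± 4.87 and 6.25 ± 0.785 CPM in the same order. Trim2, a ligase for neurofilament light chain, was at 286 ± 19.0, 443 ± 10.6 and 19.0 ± 1.71 CPM. Trim67, the closest relative of Trim9, was the exception: it was at 251 ± 6.58 CPM in the co-cultures but at 5.01 ± 0.446 in the PFC and 5.54 ± 0.398 in microglia, which differed by 0.15 log2 units (SE 0.08) and were not called. Trim36, a microtubule-associated ligase, was at 7.52 ± 0.754, 9.37 ± 0.424 and 6.59 ± 0.615 CPM and differed by less than the limit in each comparison.

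Per length, Trim32 was the highest member in the PFC (64.4 RPKM) and in the co-cultures (73.8 RPKM), and Trim28 in microglia (71.3 RPKM). Trim28, the corepressor of KRAB zinc finger proteins, was at 139 ± 7.34 CPM in the PFC, 240 ± 4.18 in the co-cultures and 296 ± 8.35 in microglia. Its relatives Trim24 (27.7, 61.4 and 33.6 CPM) and Trim33 (68.9, 128 and 75.6 CPM) were highest in the co-cultures. Trim66 went the other way, with 57.3 ± 3.52 CPM in the PFC, 5.47 ± 0.495 in the co-cultures and 1.35 ± 0.294 in microglia. Between the co-cultures and the PFC, 9 of the 38 members in all tables were called, 3 higher and 6 lower in the co-cultures, beside 35.4% of all genes.

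**Figure D1:**
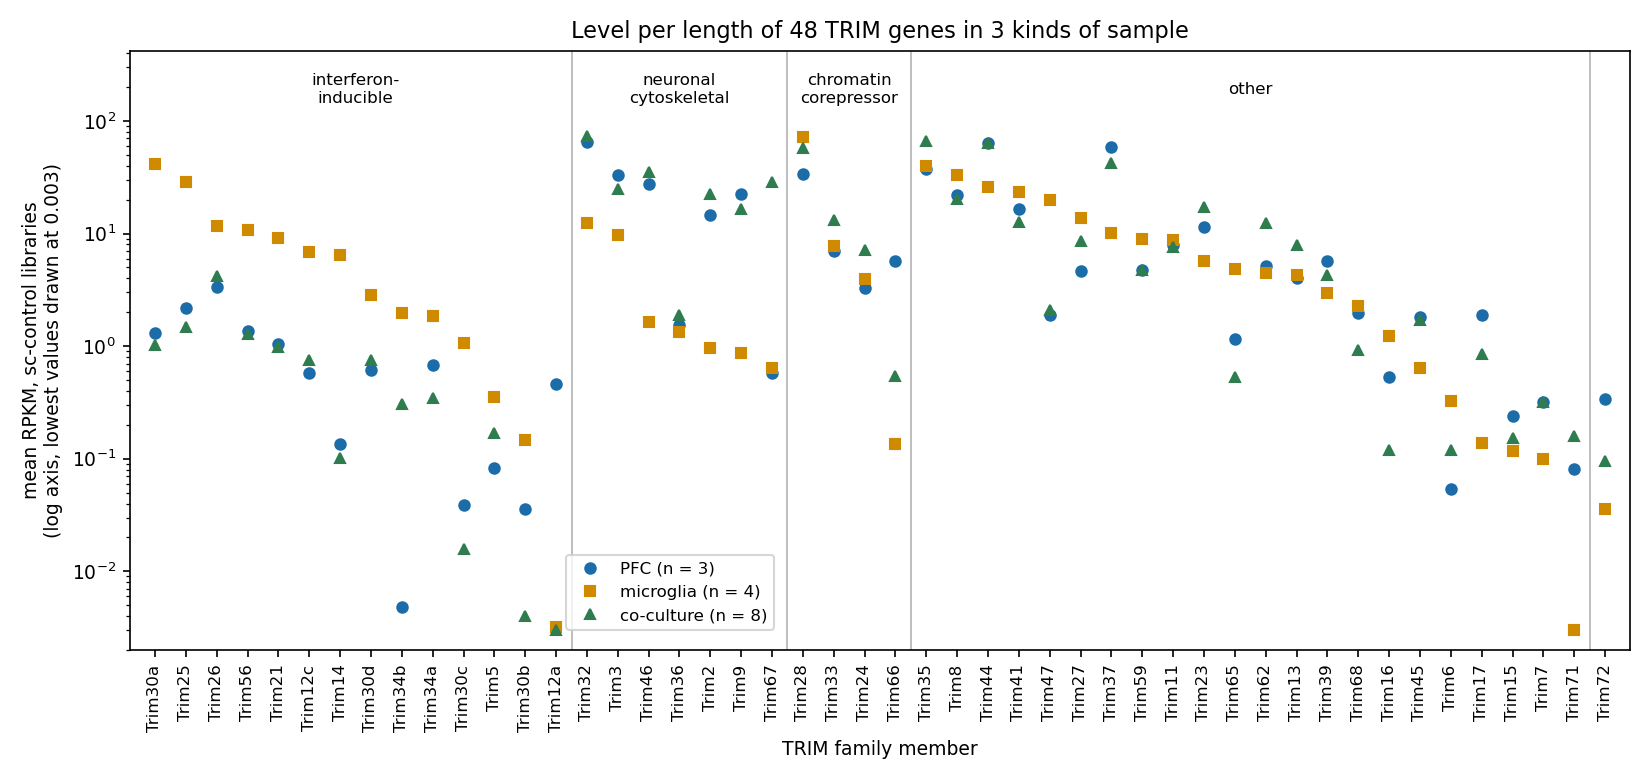
Mean level per length (RPKM, log axis) of the 48 members in the sc-control libraries of the PFC (circles, n = 3), the microglia (squares, n = 4) and the co-cultures (triangles, n = 8), grouped by known role, with the muscle gene Trim72 at the far right and values below 0.003 drawn at 0.003. Microglia are highest for the 8 interferon-inducible members at or above the CPM limit in all 3 tables, and lowest for 6 of the 7 neuronal or cytoskeletal members, Trim67 being the exception.

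In the PFC, no TRIM member passed the test between anti-miR-99b and sc-control, but all 12 interferon-inducible members tested were higher on average. With edgeR's quasi-likelihood test, 0 of the 45 members tested were called at an adjusted p under 0.1 and a log2 fold change (log2FC) beyond 0.2, where 0.0864% of the 17364 genes tested were called, and DESeq2's Wald test also called 0. At an unadjusted p under 0.05 there were 5 of 45, all interferon-inducible, beside 7.64% of all genes. The 12 interferon-inducible members tested had a log2FC above 0 in 12 of 12 cases, from 0.24 (Trim56) to 1.04 (Trim30b), with a median of 0.52. With 1 library left out in turn it was 11 or 12 of 12 (Trim34a was at -0.02 without sc-control replicate 3), and the median lay between 0.32 (without anti-miR-99b replicate 3) and 0.82 (without sc-control replicate 4). Of all genes tested 50.6% were above 0 and their median was 0.00. The 33 other members tested had 17 values above 0 and 16 below, with a median of 0.01. The paper reports more PFC genes changed at the limits used here. Its methods describe the removal of unwanted variance, and the count with a factor of unwanted variation is given below.

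The libraries of the arms did not overlap for 10 members. For 8 of the 45 every anti-miR-99b library lay above every sc-control library (7.52% of all genes), and 6 of these were interferon-inducible: Trim25, Trim26, Trim12a, Trim56, Trim30b and Trim5. The other 2 were Trim7 and Trim39, which have none of the listed roles. For 2, Trim32 and Trim35, every anti-miR-99b library lay below (5.81% of all genes).

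Trim25 had the lowest p-value. Its levels were 12.1, 11.6 and 15.5 CPM in the sc-control libraries and 17.3, 17.2 and 19.4 CPM in the anti-miR-99b libraries. The groups did not overlap, and the mean was 13.1 ± 2.14 under sc-control against 17.96 ± 1.22 under anti-miR-99b (SD, n = 3 each), a log2FC of 0.46 (SE 0.12; edgeR's adjusted p = 0.374). An exact permutation test, two-sided, gave p = 0.1, the smallest that 3 against 3 allows.

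Trim26, a ligase that acts on the transcription factor IRF3, was at 23.1, 24.9 and 23.7 CPM under sc-control and at 29.7, 28.3 and 27.2 CPM under anti-miR-99b. It had a log2FC of 0.25 (SE 0.07; edgeR's adjusted p = 0.484), and its lowest anti-miR-99b library was above its highest control. Trim56, a ligase of the cytosolic nucleic acid response, was at 12.8, 12.5 and 14.5 against 14.8, 15.3 and 16.8 CPM, a narrow gap. Trim12a was at 2.71, 2.29 and 3.44 against 4.04, 4.00 and 4.83 CPM, with a log2FC of 0.61 (SE 0.17; edgeR's adjusted p = 0.458).

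Trim30b and Trim5 were near the limit of detection. Trim30b had 10, 6 and 12 reads under sc-control and 9, 20 and 20 under anti-miR-99b, and Trim5 had 11, 7 and 14 against 12, 20 and 13. Their log2FC of 1.04 (SE 0.35) and 0.74 (SE 0.34) rest on these few reads, and the order of the libraries depends on scaling by depth.

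For the other 6 interferon-inducible members the arms overlapped, with 1 control library, replicate 4, inside the range of the anti-miR-99b libraries. Trim30a was at 4.41, 3.77 and 8.59 CPM under sc-control and at 5.39, 6.33 and 11.5 CPM under anti-miR-99b, a log2FC of 0.47 (SE 0.33). Trim21 was at 3.69, 3.91 and 4.60 against 4.86, 4.25 and 7.89 CPM, a log2FC of 0.49 (SE 0.22). Trim12c (0.55, SE 0.26), Trim14 (0.63, SE 0.35), Trim30d (0.66, SE 0.35) and Trim34a (0.28, SE 0.36) overlapped in the same way.

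Libraries of sequencing lane 7, 1 in each arm, had the highest sums of their arm. Summed over the 14 interferon-inducible members, the sc-control libraries held 65.7 and 63.8 CPM in lane 6 and 82.1 CPM in lane 7, and the anti-miR-99b libraries 85.3 and 86.7 CPM in lane 6 and 103 CPM in lane 7. Within lane 6 (2 against 2) 12 of 12 members had a higher mean under anti-miR-99b, and within lane 7 (1 against 1) 11 of 12 did, the exception being Trim14. The median log2 ratio was 0.59 in lane 6 and 0.37 in lane 7. Members are not replicates of a treatment, and the share of all genes was not taken within lanes, here or below. With the lane as a block in edgeR, 1 member was called, Trim25 (log2FC 0.46; adjusted p = 0.0628), beside 0.443% of all genes. The count was 2 (Trim25 and Trim12a) without sc-control replicate 4, the lane 7 control, beside 1.14% of all genes. It was 6 with a factor of unwanted variation (Trim25, Trim26, Trim12a, Trim12c, Trim30d and Trim23), beside 1.81%. With no filter on low counts it was 3 (Trim25, Trim12a and Trim30d), beside 1.32%.

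Microglia markers differed in the same direction as these genes. Of 10 markers, 9 had a log2FC above 0, with a median of 0.26, and none was called. At an unadjusted p under 0.05 there were 5 of 10, beside 7.64% of all genes. For 2 every anti-miR-99b library lay above every sc-control library (7.52% of all genes). The summed level of the markers was 440 to 577 CPM under sc-control and 560 to 618 CPM under anti-miR-99b, and the lane 7 control was the one at 577 CPM. In these tissue libraries, more RNA per microglial cell and more microglia cannot be told apart, and the part of the markers in the TRIM result was not tested. By cell sorting after the same kind of injection, the paper reports no difference in microglia number between the arms. Of 10 neuron markers, 2 were above 0, with a median of -0.06.

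**Figure D2:**
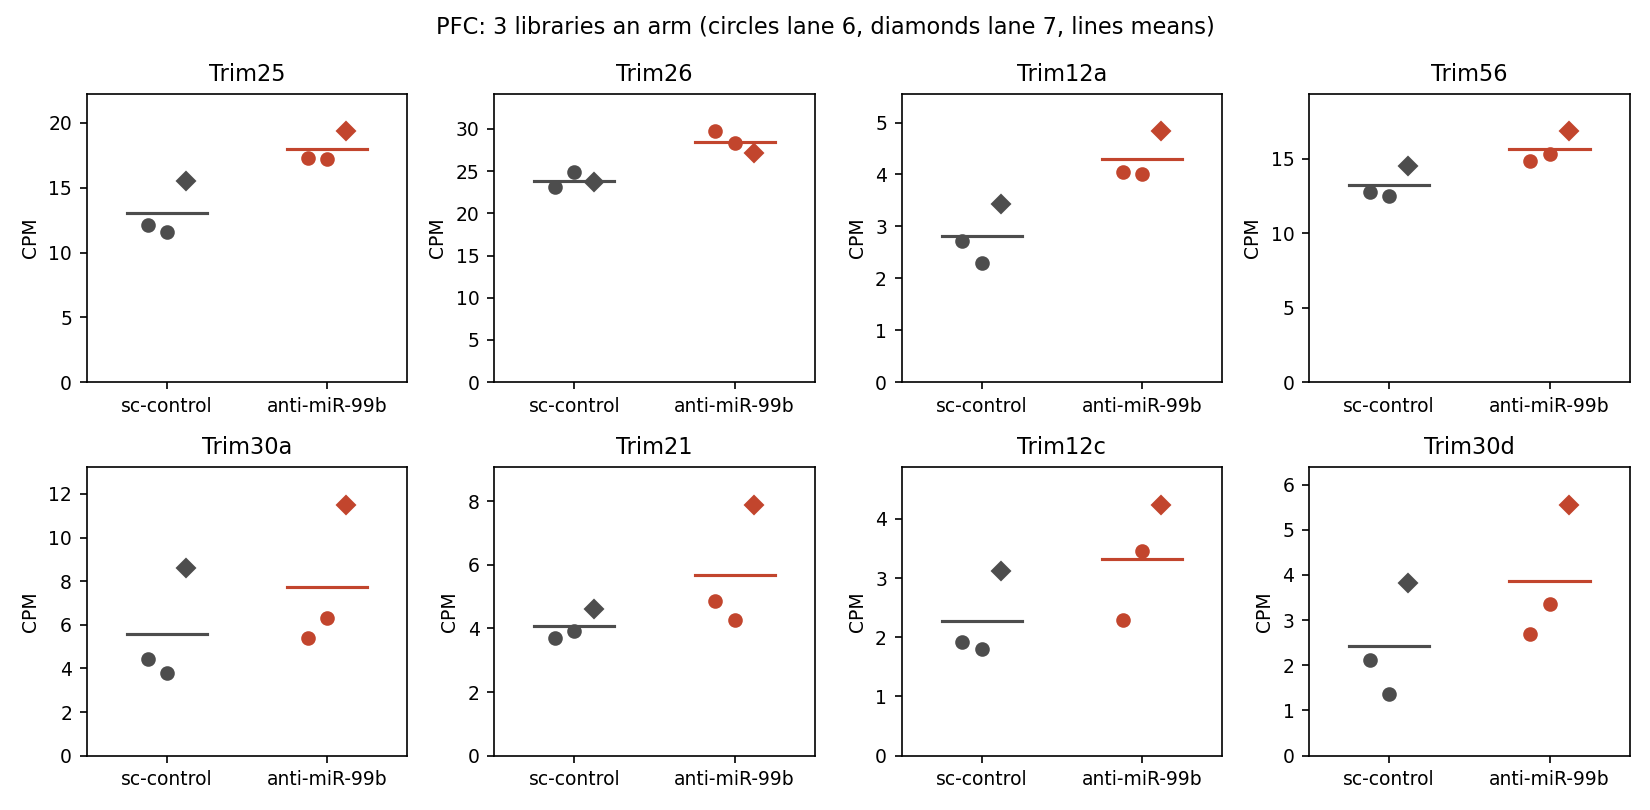
CPM of 8 interferon-inducible members in each PFC library (circles lane 6, diamonds lane 7, horizontal lines the means of 3, axes from 0). The arms do not overlap in the upper row (Trim25, Trim26, Trim12a and Trim56), while in the lower row the lane 7 control lies within the range of the anti-miR-99b libraries.

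**Figure D3:**
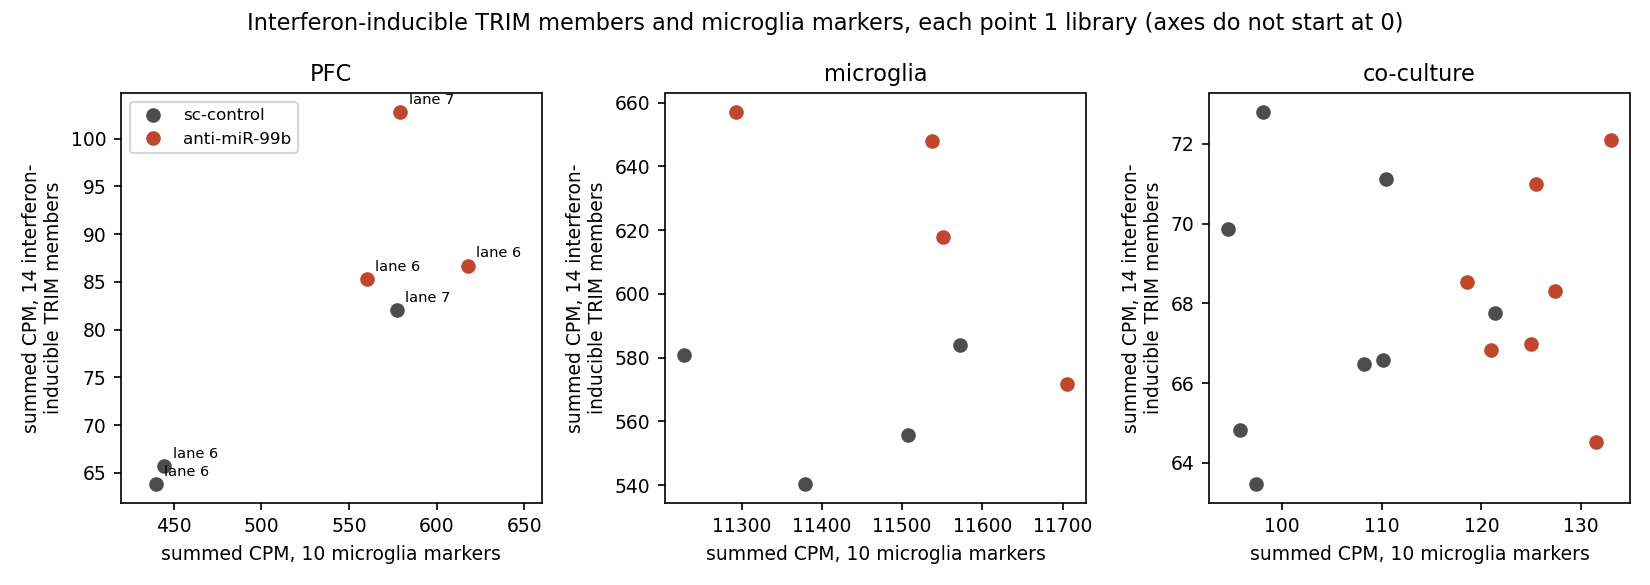
Summed CPM of the 14 interferon-inducible members against the summed CPM of 10 microglia markers, 1 point per library, with axes that do not start at 0. In the PFC the 2 lane 6 controls are lowest on both axes and the lane 7 control lies near the anti-miR-99b libraries, whereas in the co-cultures most anti-miR-99b libraries have a higher marker sum (119 to 133 CPM against 94.6 to 121, so that the ranges meet) and the TRIM sums overlap widely.

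The sensing pathway in which Trim25 acts was given as a list of 11 genes. In the PFC 9 of 11 had a log2FC above 0, and none was called. For 6 every anti-miR-99b library lay above every sc-control library (7.52% of all genes), and for 1 every one lay below (5.81% of all genes). Irf7, a transcription factor of the interferon response, was at 7.93, 10.7 and 18.7 CPM under sc-control and at 23.8, 26.4 and 28.2 CPM under anti-miR-99b (values in rising order; log2FC 1.07, SE 0.24; edgeR's adjusted p = 0.286). Ddx58, which encodes RIG-I, had a log2FC of 0.68 (SE 0.21) and Isg15, a ubiquitin-like modifier, of 0.98 (SE 0.23). Irf7, Ddx58 and Isg15 are among the genes called in the microglia below and do not stand for the list. Its 11 values ran from -0.14 to 1.07, with a median of 0.40.

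The remaining members of the PFC were less ordered. Trim32, a ligase known from muscular dystrophy and from neural progenitors, was at 218, 229 and 206 CPM under sc-control and 197, 201 and 200 CPM under anti-miR-99b, a log2FC of -0.13 (SE 0.06; edgeR's adjusted p = 0.660). Trim35 was at 180, 183 and 175 against 165, 174 and 167 CPM, a log2FC of -0.09 (SE 0.06). Both pairs of groups were separate by a narrow margin. The 7 neuronal or cytoskeletal members ranged from -0.20 to 0.04 and the 4 corepressors from -0.13 to 0.12, none of them called.

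In primary microglia, a member was called at an adjusted p under 0.1 and a log2FC beyond 0.1. Trim30a rose under anti-miR-99b and was the only member of 44 tested to pass. Its levels were 163, 165, 146 and 144 CPM under sc-control and 202, 163, 186 and 201 CPM under anti-miR-99b. Of the anti-miR-99b libraries 3 lay above every control and 1, replicate 3, lay within their range. The control mean was 155 ± 10.97 CPM and the treated mean 188 ± 17.97 CPM (SD, n = 4 each), and the log2FC was 0.28 (SE 0.05; edgeR's adjusted p = 0.0238), and the exact permutation test, two-sided, gave p = 0.0571 where 4 against 4 allows 0.0286. Among all 14953 genes tested 0.435% rose. The call rested on single libraries: it was lost without sc-control replicate 4 (adjusted p = 0.222), without sc-control replicate 6 (0.163), without anti-miR-99b replicate 1 (0.121) and without anti-miR-99b replicate 5 (0.193), and DESeq2 did not make it (adjusted p = 0.266). The log2FC stayed between 0.25 and 0.35 when any 1 library was left out.

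The interferon-inducible members as a group lay higher in microglia too. Of 13 tested, 12 had a log2FC above 0, with a median of 0.14, where 51.6% of all genes were above 0. With 1 library left out in turn it was 11 to 13 of 13 and the median lay between 0.10 (without anti-miR-99b replicate 1) and 0.19 (without anti-miR-99b replicate 3). At an unadjusted p under 0.05 there were 8 members, 7 of them interferon-inducible (Trim30a, Trim34a, Trim25, Trim14, Trim30c, Trim30d and Trim21), beside 6.45% of all genes. The other was Trim59, at -0.11 (SE 0.05). The arms did not overlap, with anti-miR-99b above, for 3 of 44 members (1.65% of all genes): Trim14, Trim34a and Trim17.

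Trim34a was at 4.43, 4.51, 3.95 and 4.50 CPM under sc-control and 5.90, 5.07, 5.53 and 5.25 CPM under anti-miR-99b. The log2FC was 0.32 (SE 0.09; edgeR's adjusted p = 0.208), and reads shared with Trim34b, which had 0.14 (SE 0.12), leave the split between this pair uncertain. Trim14 was at 25.8, 25.2, 25.8 and 23.8 against 29.9, 26.4, 28.5 and 27.3 CPM, a log2FC of 0.16 (SE 0.05; edgeR's adjusted p = 0.323). Trim17, a ligase linked to neuronal death, was at 0.466 ± 0.0910 and 0.667 ± 0.0499 CPM, from 8 to 24 reads per library (log2FC 0.49, SE 0.23).

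Trim25 was at 155, 150, 149 and 145 CPM under sc-control and at 168, 153, 161 and 165 CPM under anti-miR-99b, a log2FC of 0.11 (SE 0.03; edgeR's adjusted p = 0.234). Only anti-miR-99b replicate 3 fell inside the range of the controls, as for Trim30a. Trim21 had a log2FC of 0.11 (SE 0.05), Trim30c of 0.52 (SE 0.19), Trim30d of 0.25 (SE 0.09) and Trim30b of 0.27 (SE 0.19). Trim26 (0.04, SE 0.04), Trim12c (0.06, SE 0.04), Trim56 (0.01, SE 0.04) and Trim5 (-0.02, SE 0.19) lay within 2 standard errors of 0.

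Summed over the 14 interferon-inducible members the controls held 584, 581, 556 and 540 CPM and the anti-miR-99b libraries 657, 572, 618 and 648 CPM. Of the microglia markers none was called: their summed level was 11229 to 11573 CPM under sc-control and 11293 to 11705 CPM under anti-miR-99b, and their median log2FC was 0.01. Markers of other cell types, at low levels here, lay lower: 6 oligodendrocyte markers had a median log2FC of -0.15, with 4 at an unadjusted p under 0.05 and 1 called, and summed to 201 to 223 CPM under sc-control and 198 to 209.6 CPM under anti-miR-99b. The 10 neuron markers had a median of -0.12, with 2 above 0 and none called. Their part in the TRIM values was not tested. Within lane 5 (2 against 2) 11 of 13 members had a higher mean under anti-miR-99b and within lane 6 (2 against 2) 12 of 13 did, with median log2 ratios of 0.06 and 0.17.

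Of the sensing pathway list, 4 of 11 genes rose in microglia and none fell. They were Ddx58 (log2FC 0.39, SE 0.07), Ifih1, which encodes the sensor MDA5 (0.25, SE 0.05), Irf7 (0.65, SE 0.11) and Isg15 (0.45, SE 0.10). The remaining 7 were not called, although all 11 genes had a log2FC above 0. Pml (TRIM19), a TRIM protein without a Trim symbol and a known interferon target, rose by a log2FC of 0.21 (SE 0.04; edgeR's adjusted p = 0.0310), from 52.3 ± 1.599 to 60.5 ± 4.31 CPM, with arms that did not overlap. It is named because it was called, and is not among the 48 members.

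The neuronal or cytoskeletal members of the microglia ranged from -0.09 to 0.06 and the corepressors from -0.07 to 0.08. None of these 11 had an unadjusted p under 0.05.

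**Figure D4:**
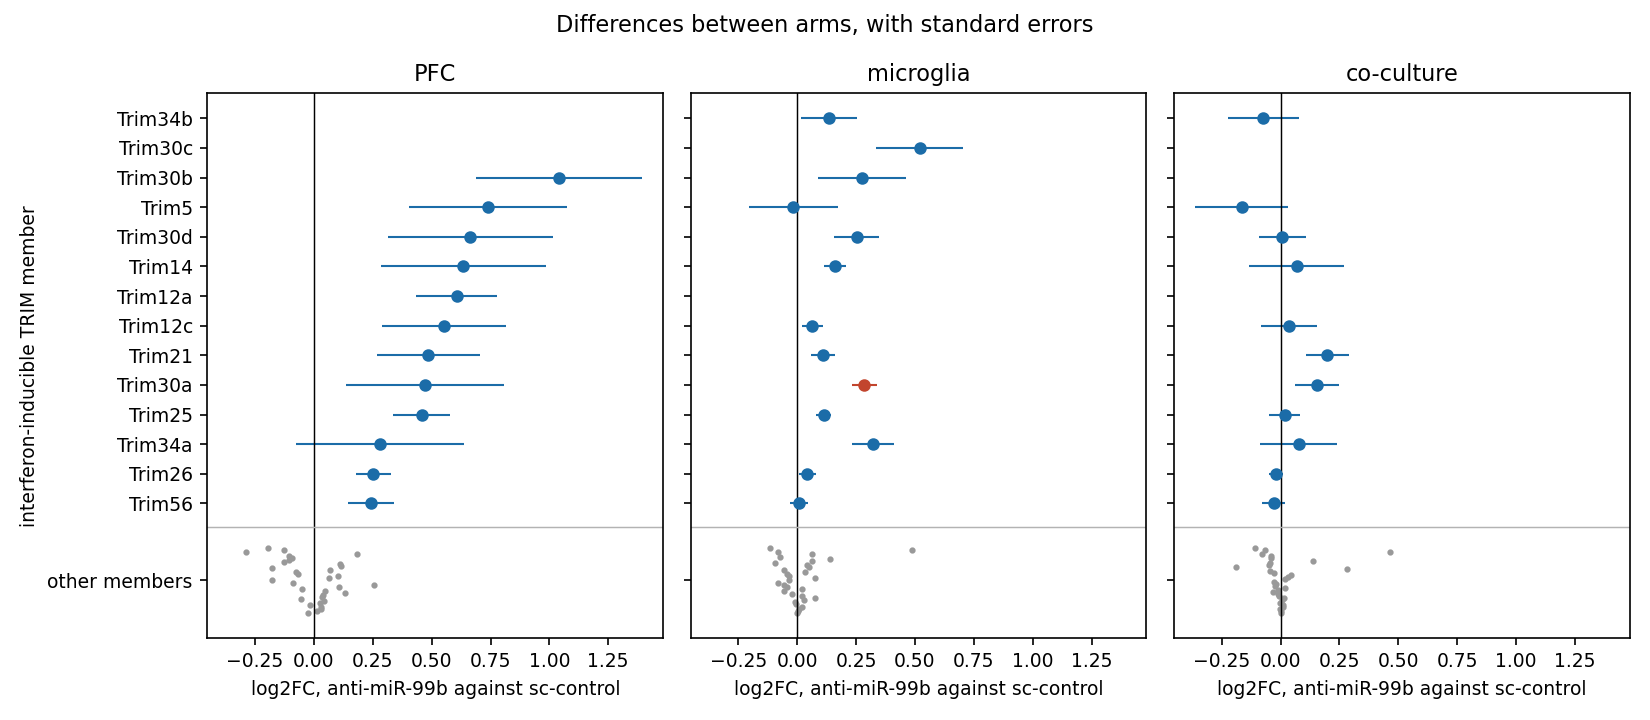
Log2FC of anti-miR-99b against sc-control with standard errors for the interferon-inducible members in each experiment (points above the line, red where called), and the log2FC of all other tested members as grey points below it. The points of the PFC all lie right of 0, from 0.24 to 1.04, those of the microglia mostly so with smaller values, and those of the co-cultures lie around 0.

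In the co-cultures no TRIM member passed, and the interferon-inducible members showed no common direction. With edgeR 0 of 43 members tested were called at an adjusted p under 0.05 and a log2FC beyond 0.1, beside 1.4% of the 16193 genes tested. DESeq2 called 1, Trim9, beside 1.77% of all genes. At an unadjusted p under 0.05 there were 6 of 43, beside 13.2% of all genes. The arms overlapped for every member, where they were separate for 0.58% of all genes. Of 11 interferon-inducible members tested, 7 were above 0, with a median log2FC of 0.02, where 51.6% of all genes were above 0. Within lanes 4, 5, 6 and 7, the members with a higher mean under anti-miR-99b were 5, 7, 4 and 7 of 11. Microglia markers summed to between 94.6 and 133 CPM here, against 11229 to 11705 CPM in the microglia, and 7 astrocyte markers to between 2216 and 2390 CPM. How far these libraries could show a change within their microglia was not tested.

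Trim21 had the largest log2FC among these, with 3.80 ± 0.436 CPM under sc-control (n = 8) and 4.34 ± 0.689 CPM under anti-miR-99b (n = 7), a log2FC of 0.20 (SE 0.09; edgeR's adjusted p = 0.345). Its libraries ran from 2.89 to 4.25 CPM (median 3.97) and from 3.31 to 5.08 CPM (median 4.69), and so overlapped widely. Trim30a was at 4.36 ± 0.559 and 4.87 ± 0.761 CPM, a log2FC of 0.16 (SE 0.09). Trim25 (0.02, SE 0.07), Trim26 (-0.02, SE 0.03), Trim56 (-0.03, SE 0.05), Trim12c (0.04, SE 0.12), Trim30d (0.01, SE 0.10), Trim14 (0.07, SE 0.20), Trim34a (0.08, SE 0.16), Trim34b (-0.07, SE 0.15) and Trim5 (-0.17, SE 0.20) lay within 1 standard error of 0.

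The microglia markers were nevertheless higher in the co-cultures: 5 of 10 were called up and none down, with a median log2FC of 0.29 and a summed level of 119 to 133 CPM under anti-miR-99b against 94.6 to 121 under sc-control. Their part in the TRIM values was not tested. Of the sensing pathway list 1 gene of 11 was called, Ikbke, a kinase of IRF3 (log2FC 0.33, SE 0.06; edgeR's adjusted p = 0.00202).

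Trim9 had the lowest adjusted p in the co-cultures, and would have been called by the limits used for the microglia. It ran from 231 to 255 CPM under sc-control (median 250, n = 8) and from 213 to 240 CPM under anti-miR-99b (median 231, n = 7). Most anti-miR-99b libraries lay below most controls, and the log2FC was -0.11 (SE 0.03; edgeR's adjusted p = 0.0612), with p = 0.00559 in an exact permutation test, two-sided. Trim9 was called by DESeq2 (adjusted p = 0.0258), with a factor of unwanted variation (0.00502) and with no filter on low counts (0.0321), and with the lane as a block its log2FC was -0.09 (adjusted p = 0.175). Its relative Trim67 was at 261 ± 7.35 and 247 ± 13.4 CPM, a log2FC of -0.08 (SE 0.03; edgeR's adjusted p = 0.203). Trim2 was at 461 ± 11.4 and 447 ± 8.53 CPM (-0.04, SE 0.02).

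Of the 7 neuronal or cytoskeletal members 6 had a log2FC below 0, where 51.6% of all genes were above 0. For 3 the unadjusted p was under 0.05, beside 13.2% of all genes. All 7 lay between -0.11 and 0.02. Trim3 was the one above 0. Of 9 genes of the netrin pathway, in which Trim9 and Trim67 act, 3 were above 0 and none was called, here or in the other experiments. The neuron markers had a median log2FC of 0.00, with 5 of 10 above 0. Outside this branch, Trim44, a relative without a RING finger, was at 375 ± 10.4 and 359 ± 6.17 CPM (-0.06, SE 0.02), and Trim16, which marks damaged lysosomes, at 0.568 ± 0.0993 and 0.802 ± 0.184 CPM (0.46, SE 0.16; edgeR's adjusted p = 0.175). The 4 corepressors lay between -0.04 and 0.02, and the 9 corepressor partners examined had no call in any experiment.

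**Figure D5:**
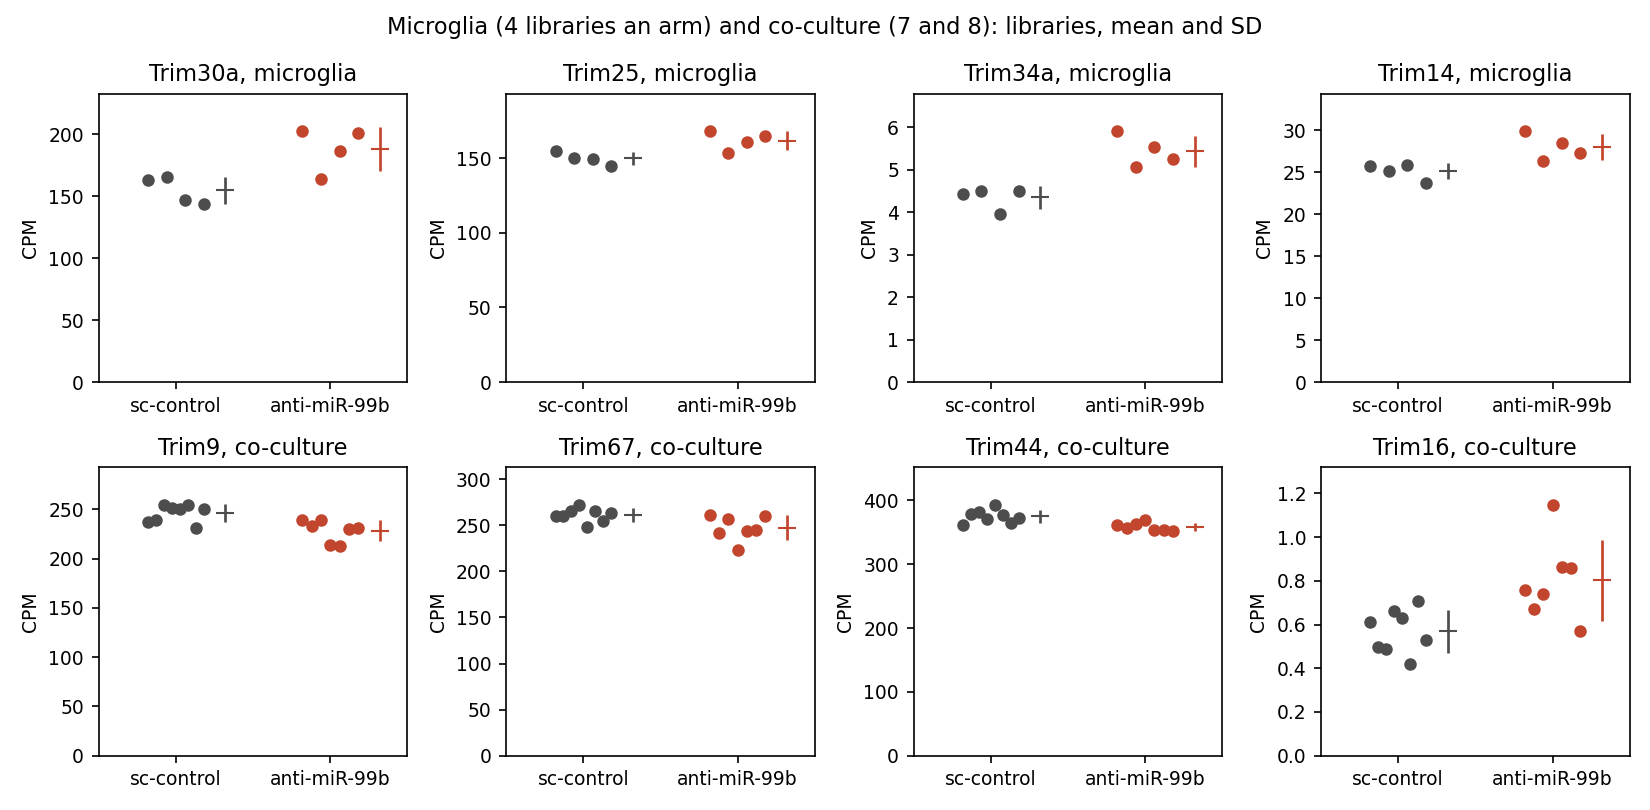
CPM of Trim30a, Trim25, Trim34a and Trim14 in the microglia libraries (upper row, 4 in each arm) and of Trim9, Trim67, Trim44 and Trim16 in the co-culture libraries (lower row, 8 sc-control and 7 anti-miR-99b), with the mean and SD beside the points and axes from 0. The arms are separate for Trim34a and Trim14 and overlap in the other panels.

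Lists of other cell types stood as follows. Of 7 astrocyte markers none was called in any experiment, and of 6 oligodendrocyte markers 1 fell in the microglia and none was called in the PFC or the co-cultures. Of the TRIM proteins with another symbol, such as Pml, 4 were tested in the PFC and 4 in the co-cultures with no call, and 3 in the microglia, where Pml was the call.

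Whether the effect of anti-miR-99b differed between experiments was tested as an interaction in 1 edgeR fit of all 29 libraries, at an adjusted p under 0.05. Between the PFC and the co-cultures 2 of 48 members were called, beside 0.791% of all genes: Trim25, with a difference of 0.44 log2 units (SE 0.11; adjusted p = 0.0459), and Trim26, with 0.27 (SE 0.06; adjusted p = 0.0140). In both cases the PFC had the larger value. With RLE size factors Trim26 was the only member called, beside 179 of 18963 genes. At an unadjusted p under 0.05 there were 10 of 48, beside 15% of all genes. Trim30a did not differ in this test (0.33, SE 0.26; adjusted p = 0.596). Between the PFC and the microglia none was called, beside 0.469% of all genes, and 11 were at an unadjusted p under 0.05, beside 11.9% of all genes. DESeq2 called 2 there, Trim32 and Trim35, beside 272 of 18963 genes. Between the microglia and the co-cultures none was called, beside 0.0844% of all genes, and 1 was at an unadjusted p under 0.05, beside 5.49% of all genes. DESeq2 also called none there. Experiment, strain, age, the way of delivery and the share of microglial RNA cannot be told apart in these differences.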

How the data were processed

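The deposited tables hold raw read counts per gene, made by the authors from 50 bp single reads of polyadenylated RNA (bcl2fastq 2.20.2, FastQC 0.11.5, STAR 2.5.2b and featureCounts 1.5.1 on mm10, per the submitters' notes). The annotation release and strand setting are not given in the sources used here. Symbols came from GENCODE M21. From the counts, edgeR 4.0.16 (R 4.3.3; filterByExpr, TMM, quasi-likelihood test, Benjamini-Hochberg) was fitted to all genes of each experiment, to the controls and, for interactions, to all 29 libraries. CPM use TMM-scaled totals, so levels in the joint control scaling differ from those within an experiment. The fits were tested on simulated data. Of 1.5-fold changes, 61% were recovered in the PFC, 85% in microglia and 90% in the co-cultures. False calls were 27 of 172, 26 of 207 and 11 of 197 in the same order. The interaction fit recovered 54% of 1.5-fold changes between the PFC and microglia and 66% between the PFC and the co-cultures. Smaller changes were not simulated. Alternatives were DESeq2 1.42.0, RLE factors, no filter on low counts, an RUVs factor (a factor of unwanted variation estimated from replicates), lane and replicate blocks, and leaving out each library (PFC, microglia). Same-numbered libraries are not stated to be paired, and their deviations did not correlate (mean r -0.12 in the PFC, -0.04 in microglia, 0.01 in co-cultures). Members, lists and tests were chosen with earlier results of these data known. Named were the interferon-inducible, neuronal and corepressor lists, members called or differing between experiments, up to 3 with the largest change each way and no overlap, the highest per length, and the 3 on each side of the CPM limit. The members Trim7, Trim16, Trim23, Trim39, Trim44, Trim47, Trim59, Trim65 and Trim71 were named after their values were seen.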

Additional observations from a re-analysis of the deposited data

Results flagged for a closer look

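In the co-cultures, Trim33 was at 143 CPM in anti-miR-99b replicate 7, above the other 6 libraries of that arm (125 to 132 CPM). In the microglia, Trim34a was at 3.95 CPM in sc-control replicate 4, below the other 3 controls (4.43 to 4.51 CPM). These were 2 of the 100 groups of values in which the gap of the extreme library was compared with Dixon's 95% critical value, which chance exceeds in about 1 of 20 groups. The effect of anti-miR-99b was larger in the PFC than in the co-cultures for Trim26 (difference of log2FC 0.27) and Trim25 (0.44) by the interaction test in edgeR, and with RLE size factors the call of Trim25 was lost.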

How the results depend on the processing

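In the PFC, the count of members called was 0 in the main fit (0.0864% of all genes). It became 3 with no filter on low counts (1.32%), 6 with the RUVs factor (1.81%, 5 members interferon-inducible) and 1 with the lane block (0.443%). It was 0 to 2 when 1 library was left out, with 2 without sc-control replicate 4 (1.14%). The replicate block gave 8 (2.97% of all genes), all interferon-inducible, but keeps only libraries with a number found under both treatments. In the PFC these include the anti-miR-99b library of lane 7 but not the control of lane 7, so that lane is mixed with treatment. With the numbers crossed, a choice made after seeing the data, the count was 9 (3.66% of all genes), also all interferon-inducible and from the same libraries. In microglia the count was 1 in the main fit (0.488% of all genes). It became 0 with DESeq2 (0.254%), 4 with no filter (0.602%) and 2 with the RUVs factor (1.06%). It was 0 to 4 when 1 library was left out. There were 0 without sc-control replicate 4 or 6 or anti-miR-99b replicate 1 or 5. There were 4 without sc-control replicate 2 (2.7%) and 3 without anti-miR-99b replicate 3 (0.744%). In the co-cultures it was 0 in the main fit (1.4% of all genes). It became 1 with DESeq2 (1.77%), no filter (0.868%) or the RUVs factor (3.18%). Differences between the PFC and the co-cultures numbered 1 with RLE factors (Trim26, beside 179 of 18963 genes) and 3 with DESeq2 (beside 506). Those between the PFC and microglia numbered 2 with DESeq2 (beside 272 of 18963 genes). The counts of the control contrasts over all 48 members stayed within 1.5 times under the alternatives run. Of the log2FC of named members, 6 of 270 changed sign without leaving a library out. Under the replicate block these were Trim21 (-0.016) and Trim56 (-0.088) in microglia and Trim30d (-0.11), Trim34a (-0.13) and Trim25 (-0.015) in the co-cultures, and under the lane block Trim30d in the co-cultures (-0.0011). Under the replicate block 10 of 13 interferon-inducible members were above 0 in microglia, with a median of 0.05. With 1 library left out, signs changed for Trim34a in the PFC (-0.018 to 0.79), Trim56 (-0.018 to 0.041) and Trim5 (-0.13 to 0.12) in microglia. The causes were not tested. Leaving out 1 co-culture library was not run, since those groups exceed 5. Depth limits Trim30b and Trim5 in the PFC (6 to 20 and 7 to 20 reads), Trim17 in microglia (8 to 24) and Trim16 in the co-cultures (11 to 27).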
